A study of Bos taurus with 16 samples.

Results

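The solute carrier (SLC) genes were taken from a table of DNA methylation levels in the bovine endometrium as every autosomal cytosine position whose assigned gene symbol begins with SLC and a family number, leaving out SLC2A11. This gave 2201 sites in 215 genes, out of 199395 sites and 10781 genes in the whole table. A gene mean was computed for the 173 SLC genes with 2 or more sites, which hold 2159 of the sites, and the other 42 genes have 1 site each. The symbol rule also takes SLC9A3R1 and SLC9A3R2, which are scaffold proteins that regulate a sodium/proton exchanger and carry no solute themselves.

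The samples were endometrial cytobrush samples of multiparous Holstein-Friesian cows, taken 4 to 8 h after artificial insemination at a heat 50 to 64 days after calving, and analysed by reduced representation bisulfite sequencing (RRBS), which reads cytosine methylation next to MspI cut sites. CON cows had no rumen-protected methionine, MET cows received it daily from day 12 after calving, and a later ultrasound check divided both diets into cows that became pregnant (P) and cows that did not (noP). The 16 libraries fall into 4 groups of 4, CON_noP, CON_P, MET_noP and MET_P, and are named here by group and library number. The study took more brush samples than there are libraries and how many cows stand behind a library was not stated, so the p-values below measure the spread between libraries. A brush collects a mixture of cells, in which a changed share of a cell type and a changed methylation level within cells cannot be told apart.

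Solute carriers are membrane proteins that move amino acids, sugars, ions, vitamins and metabolites across the cell surface or into organelles, and their family number groups proteins of related sequence. In the uterus they load the luminal fluid from which the early embryo feeds before it attaches. Methylation of CpG sites is usually low around active promoters and CpG islands and high within gene bodies. S-adenosylmethionine, which is made from methionine, is the donor of the methyl group.

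All values are percentages of methylated calls as deposited. The number of reads behind each percentage was not part of the table, beyond the minimum of 10 counts that the study set, so depth per site is unknown and no counting interval is given. By group, the depth that the study reports was unequal. Raw reads and CpG calls per replicate were highest in MET_P and lowest in CON_P. The part of depth in the spread within groups and in comparisons with MET_P was not tested. Positions valued at zero had been discarded, so that sites without any methylated call are absent. At 102 CpGs in 30 SLC genes both strands were listed as separate sites. The strand values of the same CpG in the same library differed by a median of 5 percentage points, and by 10 at the 40 CpGs with a mean of 20% to 80%, while the typical SD within a group at these positions (the median) was 5.31.

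The mean over the SLC sites was 68.0% ± 1.26 in CON_noP, 68.9% ± 1.24 in CON_P, 69.1% ± 1.05 in MET_noP and 69.2% ± 0.513 in MET_P (SD, n = 4). The CON_noP libraries ranged from 66.4% to 69.1% and the MET_P libraries from 68.6% to 69.8%, so the groups overlapped. The other 119787 autosomal sites with a gene gave 66.6%, 67.5%, 68.0% and 68.0% in the same order of groups. Over gene means the SLC genes averaged 64.7%, 65.5%, 65.6% and 66%, and the 8197 other autosomal genes 60.6%, 61.3%, 61.6% and 61.9%. By this mean the SLC genes were above the other genes in each of the 4 groups, which measure the same sites. The median gene over all libraries was nearly equal, at 70.7% for SLC genes and 70.1% for the others. Both sets had their lowest group mean in CON_noP.

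**Figure D1:**
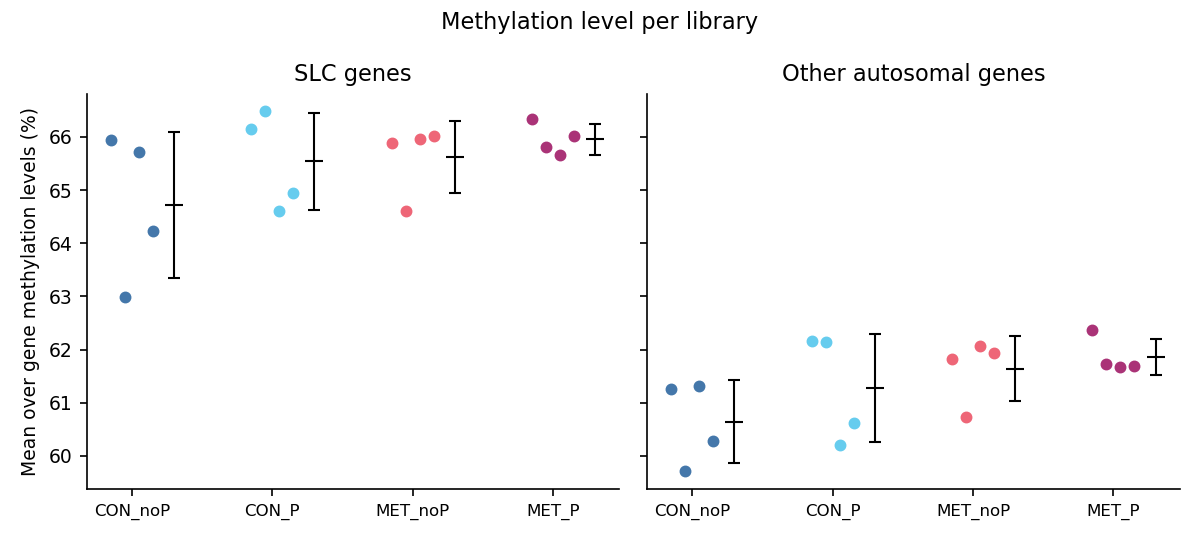
Mean methylation level in percent (y axis) of each library (points) by group (x axis), for the 173 SLC genes and the 8197 other autosomal genes with 2 or more sites. Black marks give the group mean and SD over 4 libraries. The SLC genes lie between 63.0% and 66.5% and the other genes between 59.7% and 62.4%, and the groups overlap.

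Most SLC sites were either nearly unmethylated or nearly full. Over all libraries 322 sites (14.6%) had a mean under 20%, 1191 (54.1%) a mean over 80% and 688 (31.3%) lay between, against 15.8%, 54.5% and 29.6% of the other genic sites. Of the gene means, 16 (9.25%) were under 20% and 62 (35.8%) over 80%, against 17.3% and 37.5% of the other genes. A smaller share of SLC than of other gene means was thus under 20%, while 65 of 173 (37.6%) held at least 1 site under 20% together with at least 1 site over 80%, against 35% of the other genes. These shares are descriptions without a test.

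A few genes with 5 or more sites show how sharply a carrier gene can be divided. SLC35B4, a nucleotide sugar carrier of the Golgi, had 3 sites under 20%, the lowest at 6.92%, and 3 over 80%, the highest at 98.3%, within 12211 bp of chromosome 4. SLC25A38, the mitochondrial glycine carrier needed for heme synthesis, had 2 low and 3 high sites between 8.53% and 96.2%. SLC12A4, a potassium/chloride cotransporter, had 2 low and 3 high sites between 12.2% and 97.7%, and SLC25A33, which carries pyrimidine nucleotides into mitochondria, ran from 8.62% to 97.8%. SLC44A4, a choline transporter-like protein, ran from 8.17% to 98.2%. In such genes the mean falls in the middle of the scale although hardly any site does. Gene models of the build were not used here, so these sites cannot be assigned to promoter, exon or intron.

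Among genes with 5 or more sites, the lowest means belonged to SLC32A1 (9.35%, 9 sites), the vesicular carrier of GABA and glycine, SLC35E4 (10.8%), SLC4A11 (11.2%), SLC5A5 (19.1%), the sodium/iodide symporter, and SLC25A25 (19.7%). All 9 sites of SLC32A1 were under 20%, from 6.10% to 12.3%, within 3220 bp on chromosome 13. The highest means among them were those of SLC4A5 (97.9%), a sodium bicarbonate cotransporter, SLC25A21 (96.4%), SLC3A1 (96.3%), the partner subunit of a cystine carrier, SLC29A2 (96%), a nucleoside carrier, and SLC22A8 (95.9%). The genes with the most sites were SLC22A23 (114 sites, 84.9%), SLC45A4 (85 sites, 79.7%), SLC6A3 (75 sites, 81.7%), the dopamine carrier, SLC39A11 (68 sites, 82.4%) and SLC4A2 (67 sites, 81.1%). In these 5 well covered genes every group mean lay within 5 percentage points of the others.

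Grouped by family number into 12 substrate classes, the carriers of zinc, iron, copper and other metals had the highest class mean (75.9%, 9 genes), followed by carriers of organic ions and drugs (73.7%, 14 genes) and of glucose and other sugars (72.6%, 16 genes). The sodium, potassium, chloride, calcium and magnesium carriers had the lowest (56.3%, 16 genes), below the vitamin and choline carriers (57.3%, 8 genes) and the amino acid carriers (61.8%, 30 genes). Between them were the carriers of bicarbonate, anions and protons (63.8%, 21 genes), the peptide and vesicular transmitter carriers (64.9%, 9 genes), the mitochondrial carriers (65.8%, 18 genes), and the nucleoside and nucleotide sugar carriers (66.3%, 15 genes). Phosphate and sulfate carriers averaged 66.4% (8 genes), and monocarboxylate and fatty acid carriers 66.7% (9 genes). The genes of a class differed more than the classes did, as the amino acid carriers ran from 8.15% (SLC6A15) to 97.6% (SLC1A5).

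**Figure D2:**
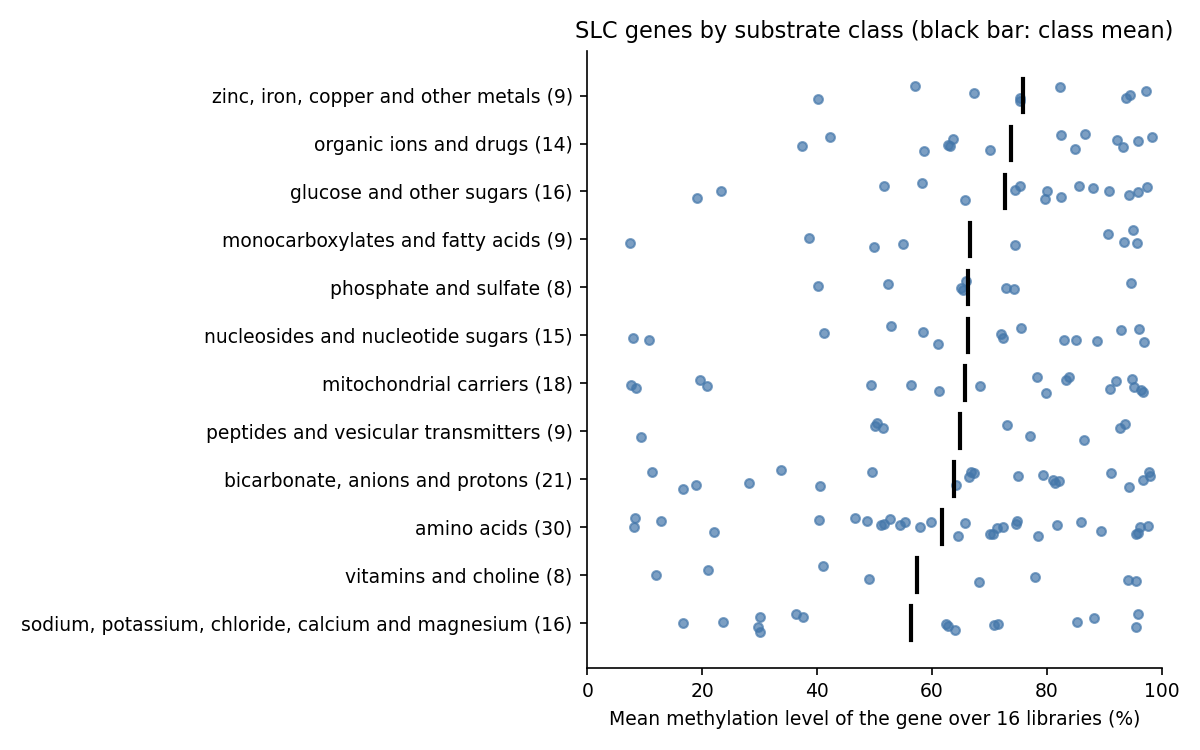
Mean methylation level over the 16 libraries in percent (x axis) of each of the 173 SLC genes (points) in 12 substrate classes (y axis, number of genes in brackets). Black bars are class means, from 56.3% for sodium, potassium, chloride, calcium and magnesium carriers to 75.9% for metal carriers, and most classes hold genes under 40% and over 90%.

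No SLC gene mean passed an adjusted p of 0.05 in limma in any of the 4 group comparisons, and neither did any other gene of the 8719 tested. In simulated data, 200 genes were changed by 10 percentage points. Of these, 51 passed in CON_P against CON_noP, 64 in MET_P against MET_noP, 75 in MET_P against CON_P and 44 in MET_noP against CON_noP. Most changes of that size would thus be missed. In CON_P against CON_noP, 9 SLC genes of 173 (5.20%) had an unadjusted p under 0.05, 6 higher and 3 lower, where 3.5% of all genes did (2.16% higher, 1.34% lower). In MET_P against MET_noP it was also 9 (5.20%), again 6 higher and 3 lower, with 5.59% of all genes (3.67% higher, 1.92% lower). In MET_P against CON_P it was 13 (7.51%), 8 higher and 5 lower, with 7.26% of all genes (5.47% higher, 1.79% lower). In MET_noP against CON_noP it was 11 (6.36%), 8 higher and 3 lower, with 6.39% of all genes (4.75% higher, 1.64% lower). Apart from CON_P against CON_noP, where the SLC share was the larger by under 2 percentage points, these shares are close to the background. With each library centred on the same median, the splits became 3 higher and 4 lower in CON_P against CON_noP and 5 higher and 6 lower in MET_noP against CON_noP, so the excess of higher genes there is not held under that scaling. The shares of all genes after centring were not computed.

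The libraries of both groups did not overlap in 4 SLC genes in CON_P against CON_noP, 2 above, SLC22A8 among them, and 2 below (SLC15A4, SLC17A5), where 1.95% of all genes did not overlap (1.24% above, 0.711% below). In MET_P against MET_noP there were 7 above and 1 below, the latter SLC4A3, with 3.44% of all genes (2.42% above, 1.02% below). In MET_P against CON_P there were 6 above and 3 below, with 3.81% of all genes (3.07% above, 0.734% below). In MET_noP against CON_noP there were 4 above (SLC20A2, SLC22A8, SLC25A22, SLC4A3) and 0 below, with 3.75% of all genes (2.87% above, 0.883% below).

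The median differences were small. They came to 0.65 percentage points for the SLC genes and 0.44 for all genes in CON_P against CON_noP, 0.13 and 0.28 in MET_P against MET_noP, 0.061 and 0.53 in MET_P against CON_P, and 0.81 and 0.63 in MET_noP against CON_noP. Leaving out 1 library moved the SLC medians: without S16 it was 0.13 in CON_P against CON_noP and 0.384 in MET_noP against CON_noP, and the sign turned in MET_P against MET_noP without S17 (−0.288) and in MET_P against CON_P without S26 (−0.119). Within a group the libraries had an SD of 2.20 to 3.07 at the median SLC gene. The outcome differences within CON and within MET rest on separate libraries, and of the 173 SLC genes 76 (43.9%) had the same sign in both, as had 44.8% of all genes. An unadjusted p under 0.05 in both outcome comparisons was found for 0 of the 173 SLC genes and 24 of all 8719 genes. For the diet differences in P and in noP cows, 82 SLC genes (47.4%) had the same sign, against 52.4% of all genes. An unadjusted p under 0.05 in both diet comparisons was found for 1 SLC gene, SLC16A3, and 42 of all genes.

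**Figure D3:**
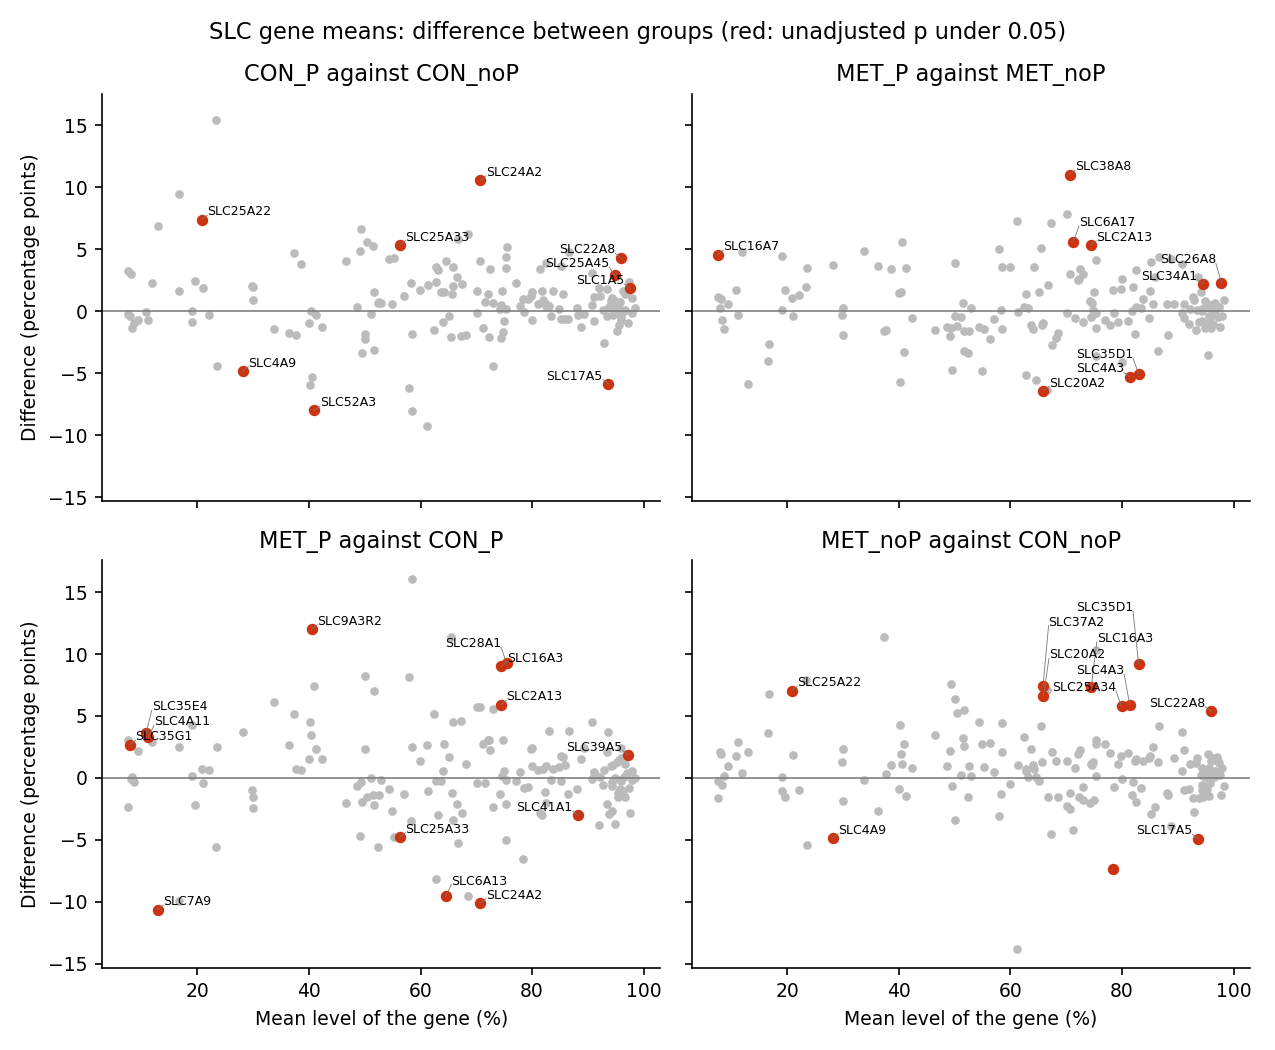
Difference between group means in percentage points (y axis) against the mean level over all libraries in percent (x axis) for the 173 SLC genes in the 4 comparisons. Red points have an unadjusted p under 0.05 (9, 9, 13 and 11 genes), most of them named. None passes the adjusted threshold.

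Amino acid carriers were the largest class. Of the 30 genes in families such as SLC1, SLC6, SLC7, SLC38 and SLC43, 1 higher and 0 lower had an unadjusted p under 0.05 in CON_P against CON_noP, 2 and 0 in MET_P against MET_noP, 0 and 2 in MET_P against CON_P, and 0 and 0 in MET_noP against CON_noP, where, of all genes, 2.16% and 1.34%, 3.67% and 1.92%, 5.47% and 1.79%, and 4.75% and 1.64% were higher and lower in the same order, the last being the direct comparison of the methionine diet in cows that did not conceive. The class mean was 61.2% ± 1.65, 62.4% ± 1.12, 61.6% ± 0.228 and 62.2% ± 0.778 (SD, n = 4) in CON_noP, CON_P, MET_noP and MET_P.

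Among 16 genes listed as carriers of methionine and other large neutral amino acids, 11 were measured and 9 had 2 or more sites. SLC7A5, the catalytic subunit of the main exchanger for leucine, methionine and related amino acids, averaged 59.8% over 17 sites, and its relative SLC7A8 95.8%. SLC1A5, the neutral amino acid and glutamine exchanger, stood at 97.6%, SLC6A19, an epithelial neutral amino acid carrier, at 74.7% over 38 sites, and SLC38A2 at 9.63% at its only site. The 9 gene means averaged 59.6% ± 2.14 in CON_noP, 61.6% ± 1.39 in CON_P, 59.9% ± 0.54 in MET_noP and 61.0% ± 1.5 in MET_P (SD, n = 4), which overlap. Of the 9, SLC1A5 had an unadjusted p under 0.05 in CON_P against CON_noP, SLC6A17 in MET_P against MET_noP and SLC7A9 in MET_P against CON_P, and none had one in MET_noP against CON_noP, while 3.5%, 5.59%, 7.26% and 6.39% of all genes had one in these comparisons.

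SLC6A17, a vesicular carrier of neutral amino acids, had gene means (6 sites) of 73.0%, 75.3%, 74.0% and 72.6% in the MET_P libraries and 71.3%, 69.4%, 67.5% and 64.3% in the MET_noP libraries. The groups did not overlap, the difference was 5.61 percentage points, and the limma adjusted p was 0.81. The CON libraries spread from 63.9% to 77.2% over both outcomes. SLC38A8, a glutamine carrier, was measured at 2 sites and gave 83.3%, 77.1%, 75.6% and 72.8% in MET_P and 65.9%, 61.9%, 70.2% and 66.7% in MET_noP. Here too the groups did not overlap (difference 11, adjusted p = 0.81), but the CON_noP libraries alone ran from 44.5% to 82.5%.

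SLC7A9, the light subunit of the cystine carrier, was low in all groups and lower in MET_P than in CON_P by 10.6 percentage points (limma adjusted p = 0.681), with 1 CON_P library at 33.3% and the other 3 between 7.30% and 16.9%. Without that library (S18) the difference was −5.66. SLC6A13, a GABA and taurine carrier, gave 57.4%, 63.8%, 56.8% and 59.6% in MET_P and 66.5%, 74.3%, 73.4% and 61.6% in CON_P. Its groups overlapped at 1 library (difference −9.57, adjusted p = 0.68). At single sites, position 22723904 on chromosome 19 in SLC43A2, a carrier of large neutral amino acids, read 100%, 100%, 78.3% and 89.3% in MET_noP and 53.3%, 75%, 77.3% and 55.2% in CON_noP, a difference of 26.7 percentage points (adjusted p = 0.906). It had no other site within 100 bp.

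Folate and choline carriers, which feed the methyl-group cycle beside methionine, were low on average. Of 12 listed genes 8 were measured and 5 had 2 or more sites, with a mean of 50.5%. SLC19A1, the reduced folate carrier, stood at 68.2%, SLC44A2 at 21.0%, SLC44A4 at 49.1% and SLC6A12, a betaine carrier, at 52.6%. Their mean was 49.6% ± 1.02, 51.2% ± 1.58, 51.1% ± 1.74 and 49.9% ± 1.46 (SD, n = 4) in CON_noP, CON_P, MET_noP and MET_P. None of the 5 had an unadjusted p under 0.05 in the 4 comparisons. Of all genes, 3.5% had one in CON_P against CON_noP, 5.59% in MET_P against MET_noP, 7.26% in MET_P against CON_P and 6.39% in MET_noP against CON_noP. SLC25A26, the mitochondrial S-adenosylmethionine carrier, was at 99.0% at its only site.

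Glucose carriers bring the main fuel of the uterine gland and the embryo into cells. Of 20 listed genes 14 were measured and 10 had 2 or more sites, with group means of 72.0% ± 2.75 in CON_noP, 74.7% ± 1.99 in CON_P, 74.1% ± 2.32 in MET_noP and 74.8% ± 0.91 in MET_P (SD, n = 4). SLC2A1, the widespread glucose transporter GLUT1, averaged 75.3% over 8 sites. SLC5A1, the sodium/glucose cotransporter of gut and kidney, was the lowest at 23.3% (3 sites) and SLC2A10 the highest at 97.4% (2 sites). The wider sugar class, formed by family number, includes SLC5A5, whose substrate is iodide.

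SLC2A13, the proton/myo-inositol symporter, was the glucose-family gene whose means did not overlap in more than 1 comparison. Its 4 sites, spread over 278798 bp of chromosome 5, gave 79.5%, 77.9%, 79.8% and 78.0% in MET_P. The MET_noP libraries gave 73.0%, 72.6%, 72.9% and 75.3%, the CON_P libraries 74.4%, 73.2%, 72.3% and 71.6%, and the CON_noP libraries 72.6%, 68.0%, 75.4% and 73.6%. Every MET_P library was thus above every other library. The difference was 5.34 percentage points to MET_noP (limma adjusted p = 0.81) and 5.92 to CON_P (adjusted p = 0.666), the interaction of diet and outcome was 4.82 (adjusted p = 0.893), and none of these passed. By its median site SLC2A13 differed by 2.08 from MET_noP and by 3.26 from CON_P.

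SLC5A2, the sodium/glucose cotransporter of the kidney (18 sites), was among the most variable carriers. Its CON_noP libraries gave 66.9%, 39.9%, 48.8% and 45.1%, and its CON_P libraries 39.9%, 62.1%, 43.9% and 42.3%. SLC5A10, a sodium cotransporter of mannose and fructose, averaged 85.5% over 32 sites. At position 34230948 on chromosome 19 it read 70.2%, 57.1%, 59.3% and 58.1% in MET_noP and 31.6%, 41.2%, 38.8% and 39.3% in CON_noP (difference 23.5, adjusted p = 0.906), with CON_P between 45.9% and 63.6% and also above every CON_noP library. Of the other 7 sites within 100 bp 6 had the same direction, and the remaining 24 sites of the gene differed by 0.26 on average.

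Bicarbonate, anion and proton carriers set the pH and fluid of the uterine lumen. SLC4A3, an anion exchanger of chloride and bicarbonate, had large differences at a single site. Both strands of a single CpG at positions 107556564 and 107556565 of chromosome 2 were listed. The first position read 21.1%, 46.3%, 47.4% and 48.6% in MET_P and 71.8%, 73.3%, 90.5% and 80% in MET_noP. The second read 52.4%, 37.9%, 51.9% and 48% in MET_P and 83.3%, 75%, 77.8% and 95.2% in MET_noP.

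On both strands of this SLC4A3 CpG every MET_P library was below every MET_noP library, by 38.1 and 35.3 percentage points on average, with a limma adjusted p of 0.656 at both positions. MET_P was also below CON_P, whose libraries lay between 56.2% and 100%, by 31.6 and 31.8 points (adjusted p = 0.827). CON_noP ran from 31.4% to 82.6% over both strands. The 12 SLC4A3 sites in this window of 57 bp included 3 further positions with differences of 10 points or more in the same direction (−13.6, −10.0 and −13.6), while 3 others were higher in MET_P by up to 2.43, and the 14 sites outside it differed by −0.16 on average. The gene mean of the 26 sites was 79.5% in MET_P and 84.8% in MET_noP, a difference of −5.30 (adjusted p = 0.81) without overlap. In MET_noP it was above CON_noP by 5.92 (adjusted p = 0.748), also without overlap, and the interaction of diet and outcome was −8.73 (adjusted p = 0.877).

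SLC4A9, a second family member, was low throughout: it averaged 30.8% in CON_noP and 26% in both CON_P and MET_noP, and both differences from CON_noP (−4.83 and −4.85) missed the adjusted threshold (limma adjusted p = 1.0 and 0.776). SLC4A11, a borate transporter-like protein, gave 12.4%, 14%, 11.4% and 12.6% in MET_P and 8.80%, 9.5%, 10.3% and 8.68% in CON_P, without overlap (difference 3.28, adjusted p = 0.666). SLC26A8, an anion carrier of sperm, was nearly full in all libraries and had the smallest adjusted p of the SLC genes in MET_P against MET_noP. Its 4 sites averaged 98.2% to 99.0% in the MET_P libraries and 94.7% to 97.2% in the MET_noP libraries (difference 2.31, adjusted p = 0.609). SLC9A3R2, a scaffold protein of the sodium/proton exchanger SLC9A3, gave 50.9%, 43.3%, 49.1% and 43% in MET_P and 25.2%, 39.7%, 29.3% and 44% in CON_P, with overlap through 1 CON_P library (difference 12, adjusted p = 0.68). At SLC9A3 itself, position 71640197 of chromosome 20 read 82.6% to 93.9% in CON_noP, 67.4% to 81.2% in CON_P and 70.3% to 76.8% in MET_noP, so that CON_noP stood above both. The differences were −13.1 and −13.1 (adjusted p = 1.0 and 0.906).

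Among the carriers of sodium, potassium, calcium and magnesium, SLC24A2, a sodium/calcium-potassium exchanger, gave 76.7%, 86.5%, 84.4% and 69.1% in CON_P against 70.8%, 72.4%, 72.4% and 58.7% in CON_noP, the largest gene-mean difference with an unadjusted p under 0.05 in that comparison (10.6 points, adjusted p = 1.0), with overlap through 1 CON_P library. MET_P lay below CON_P by 10.1 (adjusted p = 0.68). SLC41A1, a magnesium carrier, was lower in MET_P (84.8% to 87.3%) than in CON_P (88.2% to 90%), without overlap (difference −3.02, adjusted p = 0.673), but by its median site the difference was −0.411.

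SLC41A3, a relative of that magnesium carrier on chromosome 22, showed a stretch of neighbouring sites with differences of 1 sign. At position 60523798 MET_P read 53.8%, 54%, 36.1% and 50.0%, and MET_noP 20%, 13.3%, 30.8% and 34% (difference 24, limma adjusted p = 0.89). All 10 other sites within 100 bp were also higher in MET_P, by 0.26 to 22.4 points. The mean over the 11 sites was 58.9%, 41.7%, 46.1% and 55.2% in MET_P and 41.2%, 35.7%, 32.1% and 41.6% in MET_noP, while the other 53 sites of the gene differed by −0.97 on average. The window was chosen from its highest site, so its mean is a description without a test, and neighbouring sites share reads.

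SLC20A2, a sodium-dependent phosphate carrier on chromosome 27, held another such stretch. At position 37273901 MET_noP read 58.8%, 78.9%, 35.3% and 44% and CON_noP 30%, 5.26%, 21.7% and 26.9% (difference 33.3, adjusted p = 0.906). The 7 other sites, all within 41 bp, differed by 26.5 to 33.2 in the same direction. The mean of the 8 sites was 60.3%, 76.3%, 30.2% and 45.5% in MET_noP, 28.1%, 5.92%, 31.3% and 27.3% in CON_noP, 41.4%, 38.6%, 47.7% and 13.8% in CON_P, and 59.1%, 40.2%, 22.9% and 30.4% in MET_P. The lowest MET_noP library was below the highest CON_noP library there. The 31 remaining sites of the gene differed by 0.59 on average. Over all 39 sites the gene mean was higher in MET_noP than in CON_noP by 6.60 (adjusted p = 0.748) without overlap, and lower in MET_P than in MET_noP by 6.44 (adjusted p = 0.882). When the gene was summarised by its median site, both differences changed sign, to −7.34 and 7.04.

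**Figure D4:**
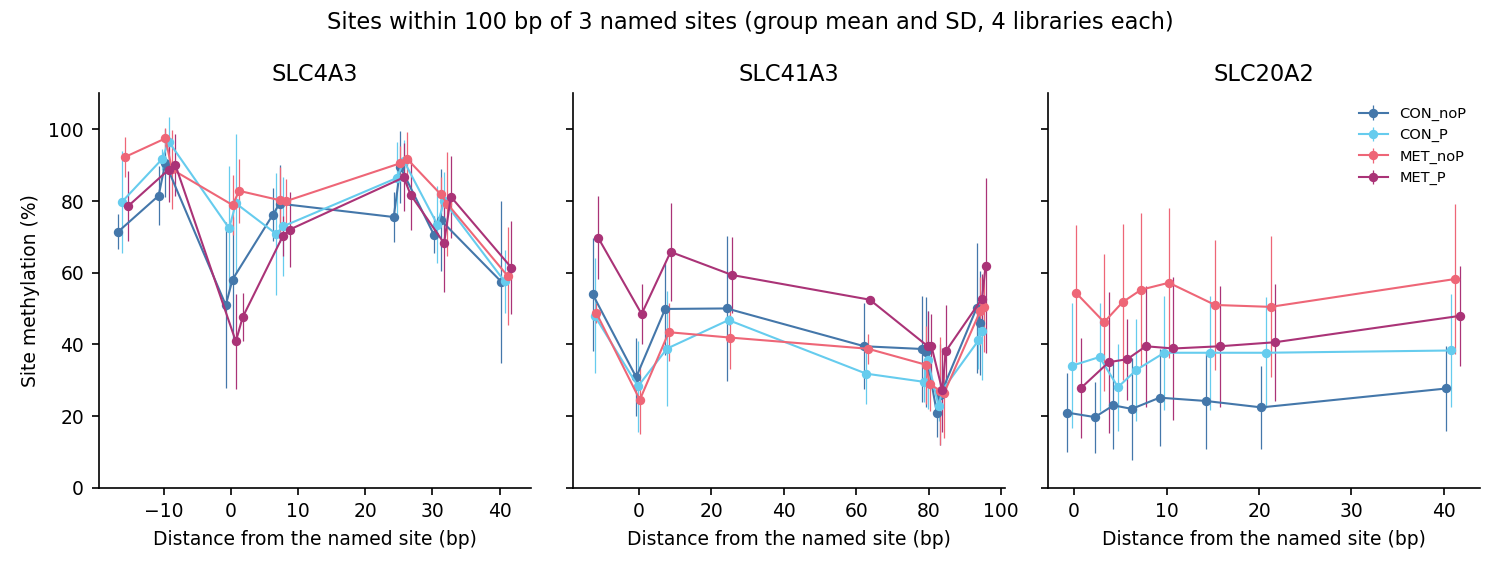
Methylation in percent (y axis) of the sites within 100 bp of a named site of SLC4A3, SLC41A3 and SLC20A2 by distance from that site in bp (x axis), as group mean and SD over 4 libraries. In SLC4A3 the MET_P mean drops to 40.8% and 47.5% at the 2 strands of 1 CpG, in SLC41A3 MET_P is the highest group at all 11 sites, and in SLC20A2 MET_noP is the highest and CON_noP the lowest group at all 8 sites.

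Of the 14 organic ion carriers 12 had a higher mean in CON_P than in CON_noP, with a median difference of 1.73, where 59.2% of all genes had a higher mean. SLC22A8, an organic anion transporter known from the kidney, was highly methylated at 5 sites within 59 bp of chromosome 29. The CON_noP libraries gave 93.6%, 89.2%, 92.4% and 94.8%, the CON_P libraries 96.6%, 97.5%, 95.1% and 98.0%, and the MET_noP libraries 95.5%, 98.6%, 98.4% and 99.0%. CON_noP thus lay below both groups without overlap, by 4.32 (limma adjusted p = 1.0) and by 5.39 (adjusted p = 0.566), the latter being the smallest adjusted p of an SLC gene in MET_noP against CON_noP. MET_P overlapped with all groups, from 92.9% to 98.8%.

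SLC16A3, the lactate and pyruvate exporter MCT4, was measured at 4 sites within 29 bp of chromosome 19. The gene means were 79.3%, 80.1%, 73.3% and 82.5% in MET_noP and 86.5%, 70.5%, 75.8% and 80.6% in MET_P, against 75%, 72.3%, 70.6% and 68.0% in CON_noP and 72.8%, 72.7%, 65.0% and 66.7% in CON_P. MET exceeded CON by 7.33 in noP cows (adjusted p = 0.748) and by 9.03 in P cows (adjusted p = 0.68), with overlap through 1 MET library in both. Over both outcomes the difference was 8.18 (adjusted p = 0.507). SLC28A1, a pyrimidine nucleoside carrier, had the widest spread within a group among genes with 5 or more sites, with CON_noP at 77.5%, 49.5%, 73.5% and 71.2%. MET_P exceeded CON_P there by 9.30 (adjusted p = 0.68), and the CON_P libraries ran from 63.1% to 82.5%. Without CON_P library S14 the difference was 5.96.

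Of the 15 nucleoside and nucleotide sugar carriers 13 had a higher mean in MET_P than in CON_P, with a median difference of 2.51, where 60.1% of all genes had a higher mean. Of these carriers 3 higher and 0 lower had an unadjusted p under 0.05, with 5.47% and 1.79% of all genes. SLC35E4, of the nucleotide sugar carrier family, gave 12.1%, 14.1%, 12.7% and 13.2% in MET_P and 9.14%, 9.85%, 8.91% and 9.78% in CON_P, without overlap (difference 3.6, adjusted p = 0.666). At SLC29A3, an equilibrative nucleoside transporter, position 27453749 of chromosome 28 read 52.9%, 53.2%, 58.3% and 48.6% in MET_P, above CON_P (18.2% to 42.4%) and MET_noP (11.1% to 46%) alike. The differences were 23.2 (adjusted p = 0.827) and 20.6 (adjusted p = 0.931), and its neighbour 23 bp away differed by 16.1 from CON_P.

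SLC13A5, the sodium/citrate cotransporter, had a difference at a single site, position 25186284 of chromosome 19. CON_P read 68.6%, 60%, 53.8% and 63.6% there and MET_P 35.8%, 21.7%, 44.8% and 22.2% (difference −30.4, limma adjusted p = 0.827), without overlap, while the 7 other sites within 100 bp differed by −4.22 to 5.98. CON_noP ran from 18.2% to 63.6% and MET_noP from 11.8% to 60%, so both covered most of that range.

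**Figure D5:**
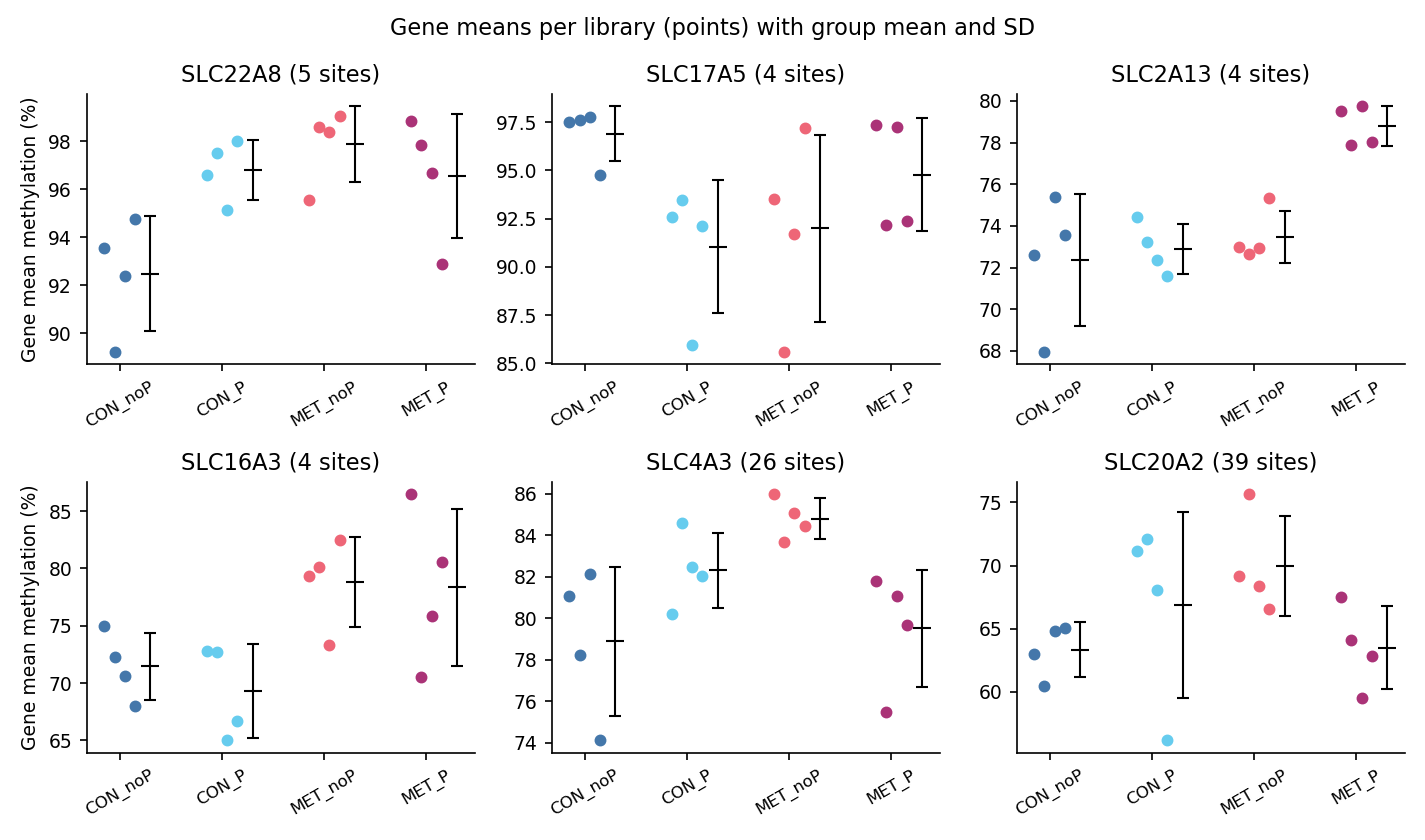
Gene mean methylation in percent (y axis) of 6 SLC genes in each library (points) by group (x axis), with the group mean and SD in black. The y axes differ and do not start at 0. All MET_P libraries of SLC2A13 lie above all other libraries, and CON_noP lies below CON_P and MET_noP in SLC22A8.

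Of the 18 mitochondrial carriers, which exchange metabolites across the inner membrane, 14 had a higher mean in CON_P than in CON_noP (median difference 1.77), where 59.2% of all genes had one. Of these carriers 3 higher and 0 lower had an unadjusted p under 0.05, with 2.16% and 1.34% of all genes. In MET_P against MET_noP 9 of the 18 had a higher mean, with 55.7% of all genes. SLC25A33 gave 61.6%, 59.8%, 59.5% and 56.9% in CON_P, above MET_P (53.6% to 55.6%) without overlap (difference −4.77, adjusted p = 0.68) and above CON_noP with overlap (5.35, adjusted p = 1.0). SLC25A22, a mitochondrial glutamate carrier of 3 sites, gave 11.6% to 16.9% in CON_noP and 18.3% to 32.3% in MET_noP (difference 7.03, adjusted p = 0.761), and the difference was 3.66 without MET_noP library S25. SLC17A5, the lysosomal sialic acid exporter, gave 97.5%, 97.6%, 97.8% and 94.8% in CON_noP and 92.6%, 93.5%, 85.9% and 92.1% in CON_P, without overlap (difference −5.87, limma adjusted p = 1.0). All 8 vitamin and choline carriers had a higher mean in MET_noP than in CON_noP, with a median difference of 1.9, where 63.1% of all genes had a higher mean. Counts of higher means are given here for only some of the 12 classes and 4 comparisons. The genes of a class share the same libraries, and these counts were not repeated with a library left out or after centring. SLC52A3, a riboflavin carrier, was lower in CON_P than in CON_noP by 8.00 (adjusted p = 1.0) with overlap.

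Over both outcomes, 15 SLC genes (8.67%) had an unadjusted p under 0.05 for MET against CON, 14 higher and 1 lower, where 8.77% of all genes did (7.31% higher, 1.47% lower). Centring the libraries gave 8 higher and 5 lower, and the shares of all genes after centring were not computed. Over both diets, 6 SLC genes (3.47%), 5 higher and 1 lower, had one for pregnancy, with 3.44% of all genes (2.57% higher, 0.872% lower). The interaction had 10 (5.78%), 5 positive and 5 negative, with 5.4% of all genes (2.55% and 2.86%), and centring gave 7 and 3. The adjusted counts were 0 in all 3, in limma, and the smallest adjusted p of an SLC gene was 0.507, 0.999 and 0.877.

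Among single sites, 0 of the 2201 passed an adjusted p of 0.05 in limma. In simulated data for CON_P against CON_noP, 0 of 200 sites changed by 40 percentage points passed either. The adjusted count therefore cannot show that sites did not differ, and the other comparisons were not simulated for sites. In CON_P against CON_noP, 66 SLC sites were higher and 35 lower at an unadjusted p under 0.05 (4.59% in all), where 3.93% of all sites were (2.53% higher, 1.4% lower). In MET_P against MET_noP it was 66 and 51 (5.32%), with 5.12% of all sites (2.57% and 2.55%). In MET_P against CON_P it was 68 and 72 (6.36%), with 5.83% (3.06% and 2.77%), and in MET_noP against CON_noP 77 and 48 (5.68%), with 5.13% (3.36% and 1.77%). The groups did not overlap at 24 higher and 12 lower SLC sites in CON_P against CON_noP (1.64%), where 1.99% of all sites did not (1.22% and 0.77%). It was 45 and 27 (3.27%) in MET_P against MET_noP, with 2.9% of all sites (1.64% and 1.26%). It was 41 and 29 (3.18%) in MET_P against CON_P, with 3.09% (1.92% and 1.17%), and 41 and 17 (2.64%) in MET_noP against CON_noP, with 2.75% (1.85% and 0.903%). After centring, the unadjusted split was 54 and 96 in MET_P against CON_P and 59 and 66 in MET_noP against CON_noP. The shares of all sites after centring were not computed. Of 25 SLC genes named in the study's own text, 23 were members, with 672 sites. The study chose them on these libraries, so they are not independent evidence. Of their 23 gene means, 0, 2, 0 and 2 had an unadjusted p under 0.05 in the 4 comparisons in the order above. The shares of all genes were 3.5%, 5.59%, 7.26% and 6.39%.

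Marker genes of leukocytes, of epithelium, and of stroma and endothelium were checked by their methylation. The 12 measured leukocyte genes of 20 listed averaged 61.7% ± 2.22 in CON_noP, 61.8% ± 3.59 in CON_P, 60.9% ± 1.44 in MET_noP and 64.0% ± 1.04 in MET_P (SD, n = 4), the MET_P libraries from 62.9% to 65.0% and the MET_noP libraries from 59.4% to 62.9%. The CON_P libraries ran from 56.9% to 64.9% and overlapped MET_P. The leukocyte genes stood highest in MET_P, as SLC2A13 and the SLC41A3 stretch did. The means over all SLC genes (66%) and over the other autosomal genes (61.9%) were highest there too. The part of the leukocyte genes in the SLC2A13 and SLC41A3 results was not tested. The 6 epithelial genes averaged 36.8%, 37.7%, 38.2% and 36.7%, and the 8 stromal and endothelial genes 62.2%, 61.2%, 62.4% and 62.0%.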

How the data were processed

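RRBS libraries were prepared from MspI-digested DNA. Per the study's methods and the labels, the authors used Trim Galore for adapter removal, Bismark with bowtie2 for alignment (genome ARS-UCD1.2), SAMtools to merge runs, and quantified cytosines with at least 10 counts in SeqMonk. They deposited the percent methylation of each position in 16 libraries, with an assigned gene. Positions without a value or at zero were discarded by the authors, which removes fully unmethylated sites. Counts were not part of the table, so the coverage minimum could not be varied, the study's logistic regression on counts was not used, and the precision of a value is unknown.

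Columns name a group and a library number. Gene means over sites (2 or more) and single sites were compared as log2 ratios, with an offset of 1 percentage point, in limma 3.58.1 (R 4.3.3) with Benjamini-Hochberg adjustment over all 8719 genes or 199395 sites. Each group comparison used its own 8 libraries, and pooled effects and the interaction all 16. The scripts were tested on simulated data. Genes are named if they had an unadjusted p under 0.05 (5 per direction and comparison), or were the lowest, highest, best covered, most variable or most mixed, or listed carriers. Genes in the study's text were counted together, and not all are named. Sites are named if groups did not overlap (3 per direction). The SLC genes, substrate classes and lists were chosen with earlier results of these data known. Some items that met these rules are not reported here.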

Additional observations from a re-analysis of the deposited data

Results flagged for a closer look

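Within a group of 4, 1 library stood apart from the other 3 by Dixon's test in 15 of 256 groups examined (4 groups for each of 64 values), and chance flags about 1 in 20 groups. The mean over all SLC sites was 67.56% in MET_noP library S17, and 69.46% to 69.83% in the rest of the group. Library S17 also stood low in SLC25A33 (55%, others 57.49% to 57.63%) and at the SLC49A3 site at position 117640799 (44.44%, others 53.85% to 54.84%). CON_noP library S28 was low in SLC24A2 (58.72%, others 70.78% to 72.42%) and SLC17A5 (94.76%, others 97.5% to 97.75%), and high in SLC52A3 (44.89%, others 41.34% to 41.88%). MET_noP library S25 was high in SLC25A22 (32.29%, others 18.33% to 19.62%), SLC32A1 (11.89%, others 8.997% to 9.398%) and SLC5A2 (66.07%, others 50.46% to 53.09%). MET_P library S27 was low in SLC5A5 (13.71%, others 20.7% to 21.54%) and SLC4A2 (78.59%, others 82.01% to 82.35%).

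The remaining values were those of MET_noP library S29 in SLC2A13 (75.33%, others 72.63% to 72.97%), CON_noP library S16 in SLC29A2 (96.15%, others 95.82% to 95.87%), MET_P library S15 at the SLC4A3 site at position 107556564 (21.05%, others 46.34% to 48.57%), and MET_noP library S13 at the SLC5A10 site at position 34230948 (70.21%, others 57.14% to 59.26%).

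At 2 SLC sites the libraries separated in opposite directions in comparisons without shared libraries, and the difference between the comparisons was not tested. Of all sites, 1.99% did not overlap in CON_P against CON_noP and 2.9% in MET_P against MET_noP. In MET_P against CON_P it was 3.09%, and in MET_noP against CON_noP 2.75%. The share of all sites with opposite separations was not computed. In SLC39A11 (chromosome 19, position 58493843) CON_P was above CON_noP by 2.5 percentage points and MET_P against MET_noP gave −1.39. In SLC17A9 (chromosome 13, position 54447595) MET_P against CON_P gave −10.5 and MET_noP was above CON_noP by 8.02.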

How the results depend on the processing

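Of the summary results (adjusted counts, median differences and levels), 456 values under the alternatives stayed near the main value and 10 moved. Many of the 456 are adjusted counts that stayed at 0, so this tally does not measure how robust the results are. A median or level counted as near if it changed by less than the SD between libraries, and its sign was not considered. That SD was about as large as the medians themselves or larger. With an offset of 0.1 percentage points in place of 1, adjusted calls appeared at SLC sites, 3 in CON_P against CON_noP, 5 in MET_P against MET_noP, 6 in MET_P against CON_P and 4 in MET_noP against CON_noP. In all 18 of these calls the 4 libraries of the higher group were at 100%, with differences of 1.8 to 7.54 points. With only sites of 10% to 90% the median gene difference was 0.939 in MET_P against CON_P, 1.95 in MET_noP against CON_noP and −1.23 for the interaction, and the median site difference in MET_noP against CON_noP was 1.65. With the median site per library, the level differed by 1.16 in MET_P against MET_noP and by 1.78 in MET_P against CON_P. SLC20A2 changed sign when its median site was used, to 7.04 in MET_P against MET_noP and −7.34 in MET_noP against CON_noP. The cause was not tested. For the counts that follow, the shares of all genes or sites under the same setting were not computed. Whether all genes or sites shifted alike is therefore unknown. Without CON_P library S30 the count of SLC genes at an unadjusted p under 0.05 went from 9 to 20 in CON_P against CON_noP, from 13 to 27 in MET_P against CON_P and from 10 to 17 for the interaction. It went from 6 to 11 for pregnancy over both diets, and the count of sites from 101 to 152 and from 140 to 245 in the first 2 of these comparisons. Without S24, S28 or S18 the count of genes in CON_P against CON_noP was 4, and without S12 it was 5. The count went from 9 to 15 in MET_P against MET_noP without S17, from 13 to 7 in MET_P against CON_P without S26 and to 8 without S15, and from 11 to 6 in MET_noP against CON_noP without S28. For the interaction it was 6 without S28 or S15 and 5 without S26. Limiting the genes to 5 or more sites left 4, 3, 8 and 6 such genes in the 4 comparisons, 1 for pregnancy over both diets and 5 for the interaction. With only sites of 10% to 90% there were 4 such genes in CON_P against CON_noP, 8 in MET_P against CON_P, 7 in MET_noP against CON_noP, 9 for diet over both outcomes and 4 for the interaction, out of fewer genes tested. The median gene difference in MET_P against MET_noP was then −0.313, and the SLC sites higher and lower were 21 and 9, 21 and 26, 34 and 25, and 50 and 10 in the 4 comparisons, out of 1065 sites. With the median site there were 8 in MET_P against CON_P and 8 for diet, and with all libraries in one model 7 in MET_noP against CON_noP. Summarised by the median site, SLC25A33 differed by 11.6 in CON_P against CON_noP and by −10.6 in MET_P against CON_P, SLC9A3R2 by 20.7 and SLC35E4 by 2.28 in MET_P against CON_P, SLC25A22 by 12.9 in CON_P against CON_noP and by 12 in MET_noP against CON_noP, and SLC4A9 by −2.91 in CON_P against CON_noP. With only sites of 10% to 90%, SLC6A17 differed by 9.94, SLC4A3 by −10.1 and SLC20A2 by −14.1 in MET_P against MET_noP. No paired analysis was possible because the columns do not carry the replicate numbers of the labels. Sets of consecutive library numbers, each with 1 library of every group, were fitted as a block instead, and nothing in the labels says that these sets are pairs. With that block no SLC gene or site passed the adjusted threshold, and at an unadjusted p under 0.05 there were 5 higher and 2 lower SLC genes in CON_P against CON_noP, 6 and 4 in MET_P against MET_noP, 6 and 4 in MET_P against CON_P, and 11 and 1 in MET_noP against CON_noP. For SLC sites these counts were 70 and 34, 69 and 55, 54 and 69, and 64 and 51. The coverage minimum could not be varied without counts.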

Other observations

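The 147 SLC sites on chromosome X, in 9 genes that are not among the autosomal carriers described above, averaged 32.1% ± 4.25 in CON_noP, 34.4% ± 3.35 in CON_P, 35.8% ± 1.62 in MET_noP and 38.8% ± 2.48 in MET_P (SD, n = 4). The CON_noP libraries ranged from 28.3% to 37.7%, and the groups were not tested against each other.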
